A study of Homo sapiens with 3 samples.

Results

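FOXA2 binding was followed across CFTR, the gene of the cystic fibrosis chloride channel, in Caco2 cells, an established human colorectal adenocarcinoma line that serves as a common stand-in for intestinal epithelial cells. The members are the FOXA2 peaks whose midpoint lies in chr7:117020000-117409000 (hg19), that is CFTR at chr7:117120017-117308719 on the plus strand with 100 kb on each side. There are 55 such peaks among the 90856 of both peak lists, 35 of 63949 in replicate 1 and 20 of 26907 in replicate 2. Both lists come from chromatin immunoprecipitation and sequencing (ChIP-seq) with a FOXA2 antibody in untreated Caco2 cells, and an input library of sonicated chromatin taken without antibody served as the control in peak calling. The input has a part only in those calls. The libraries held 26183147 tags (aligned sequenced ends) in replicate 1 and 15756702 in replicate 2. All groups share a single cell line and growth condition, and it is not stated whether separate cultures gave the replicates, so their spread may be technical.

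FOXA2 is a forkhead transcription factor that can bind closed chromatin and is active in tissues of endodermal origin, including the gut, liver, pancreas and lung. CFTR is an apical anion channel that secretes chloride and bicarbonate and thereby draws water into the intestinal lumen. Its promoter lacks a TATA box and carries little cell-type information on its own. Much of its tissue-specific expression is known to depend on enhancers inside introns and beyond the gene, to which forkhead, HNF1 and CDX2 factors bind in intestinal cells. No exon annotation of hg19 was used here, so sites within the gene are placed by their distance from its start and not by intron number. In RefSeq's gene order (GRCh38.p14) the neighbouring protein-coding genes are ASZ1 before CFTR and CTTNBP2 after it, and the antisense RNA genes CFTR-AS1 and CFTR-AS2 lie within CFTR.

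No FOXA2 peak had its midpoint within 1 kb of the CFTR start in either replicate. Longer stretches of the gene also held no peak of either replicate. The longest, 30.1 kb from centre to centre, ran from 52.9 to 83 kb after the start. The promoter sequence is shown as a part of the gene without a called peak. It covers 250 to 101 bases before the RefSeq start, at chr7:117479775-117479924 of GRCh38.p14, plus strand, from RefSeq, and contains no capitals because no motif searched was present.
CFTR promoter: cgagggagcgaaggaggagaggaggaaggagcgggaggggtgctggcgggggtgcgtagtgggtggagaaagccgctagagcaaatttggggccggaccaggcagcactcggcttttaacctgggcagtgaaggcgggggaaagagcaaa
The forkhead core motif TGTTTAC was searched on both strands, and 1.80% of 35116 RefSeq promoter stretches of the same length held it. A related forkhead motif, TATTTAC, was held by 1.55% of them. The last motif searched, TGTTTGC, was held by 2.00%. None of these motifs, which do not contain each other, was found in the 150 bases of CFTR. Most such stretches also lacked all of them, since only 5.23% held at least 1. Their absence from CFTR says only that these letters are not in this stretch. Its G and C content was 63.3%, against a median of 56% over all such stretches. Sequences of the peaks themselves are not shown, since no genome of the build of the peak lists was used here.

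Of the 37 distinct sites in the CFTR window, 18 were called in both replicates, 17 in replicate 1 only and 2 in replicate 2 only. Sites count as shared where peaks of both lists have at least 1 bp in common, and their position is that of the peak in replicate 1. Over the whole lists, 38.1% of replicate 1 peaks and 90.5% of replicate 2 peaks were shared. The strength of a peak is its deposited score, the authors' tag count scaled to 10000000 tags per library, here called normalised tags. Shared scores ran from 6 to 196 in replicate 1 and from 8 to 209 in replicate 2. CFTR itself held 13 shared sites, against 2 in the flank before it and 3 in the flank after it. This is 6.89 shared sites per 100 kb in the gene, against 2.00 and 2.99 per 100 kb in the flanks. Of all the normalised tags in the window's peaks, the gene held 75.7% in replicate 1 and 80.4% in replicate 2. The map of the locus shows the sites running through the whole gene, with the highest near its middle.

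**Figure D1:**
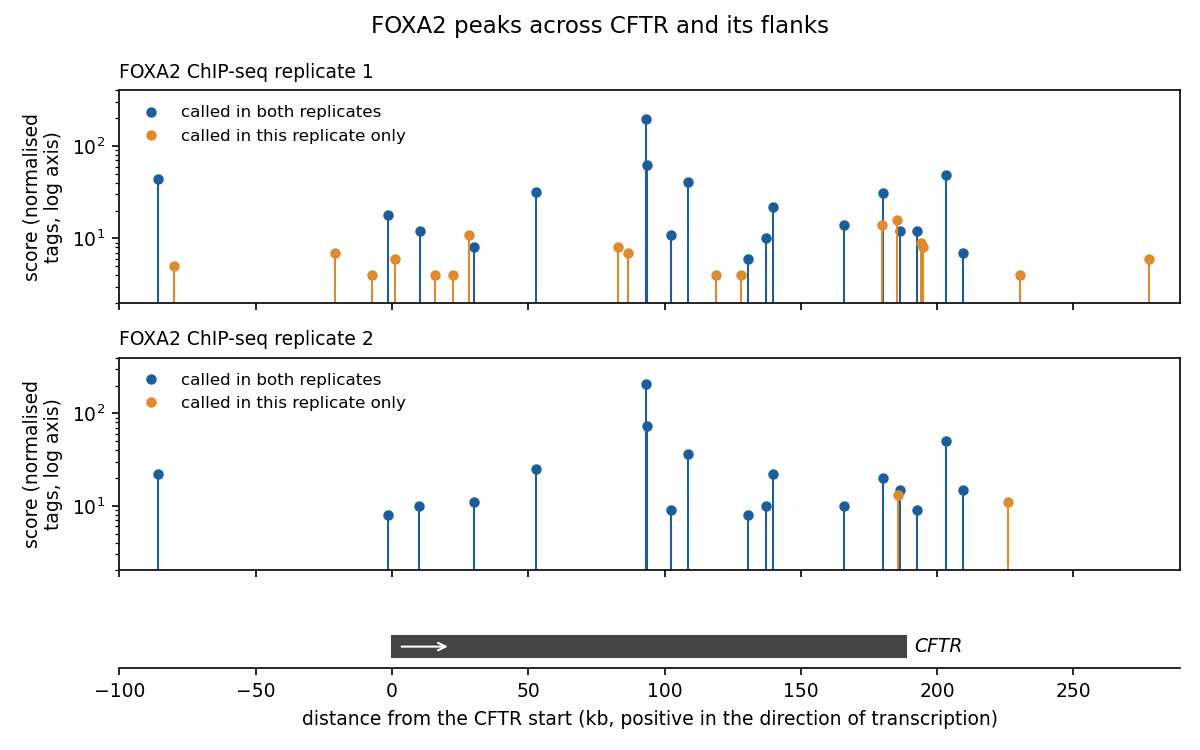
Score of each FOXA2 peak (normalised tags, log axis) against distance from the CFTR start in kb, for replicate 1 (top) and replicate 2 (bottom), with the gene as a bar. Blue points are peaks called in both replicates and orange points peaks called in that replicate only. The highest peaks, with scores of 196 and 209, stand near the middle of the gene in both.

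The shared site nearest the CFTR start lay just outside the promoter, 1.62 kb upstream, at chr7:117118332-117118454. It scored 18 in replicate 1 and 8 in replicate 2 (mean 13 ± 7.07, SD, n = 2). Its 95% intervals from counting error were 13.2 to 23.9 and 4.39 to 14.1, so the replicates' intervals overlapped. On the other side of the start, 1.21 kb into the gene, replicate 1 alone had a weak peak at chr7:117121165-117121287 with a score of 6. Within 2 kb of the start there were therefore 2 peaks in replicate 1 and 1 in replicate 2, none of them near the top of the window's scores.

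The centre of CFTR carried the strongest FOXA2 binding of the window, in a pair of sites side by side. The stronger, at chr7:117212992-117213114, scored 196 in replicate 1 and 209 in replicate 2 (mean 202.5 ± 9.19, SD, n = 2). Counting error gave intervals of 179 to 214 and 187 to 233, so the replicates' intervals overlapped. It was 24.5 times the median peak of the replicate 1 list and 19 times that of the replicate 2 list. It ranked 64 of all replicate 1 peaks and 34 of all replicate 2 peaks, and ranked 4 and 2 among the peaks of chromosome 7. By the mean of both ranks it was number 40 of the 24345 shared sites of the genome and number 2 of those on chromosome 7.

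Its partner, at chr7:117213398-117213520, scored 63 in replicate 1 and 73 in replicate 2 (mean 68 ± 7.07, SD, n = 2). The centres were 406 bp apart in replicate 1 and 371 bp apart in replicate 2, which is above the distances of 244 bp and 300 bp below which the peak caller could not separate peaks. The stronger site exceeded its partner 3.11-fold in replicate 1 and 2.86-fold in replicate 2. Together they carried 36.6% of the normalised tags of the window's replicate 1 peaks, and 48.1% of those of its replicate 2 peaks. Pairs of this strength were few. Over the genome 1432 shared sites scored at least 50 in both replicates, 77 of them on chromosome 7. They formed 12 neighbouring pairs within 1 kb, of which 1, this pair, was on chromosome 7. The limit of 50 lies below the partner's scores of 63 and 73. Shared sites of any score formed 805 such pairs.

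A run of binding followed this pair. With steps of up to 10 kb from one shared site to the next, the pair belonged to a run of 4 over 15.4 kb, and on chromosome 7 15 runs held 4 or more shared sites and the longest held 6. The third site of the run, at chr7:117222363-117222485, was weak, with 11 in replicate 1 and 9 in replicate 2. The fourth, at chr7:117228380-117228502, 108 kb from the start, scored 41 in replicate 1 and 36 in replicate 2 (mean 38.5 ± 3.54, SD, n = 2). It was the third strongest site inside the gene, and the counting intervals of its replicates, 33.5 to 49.4 and 27.4 to 46.9, overlapped.

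Before the central pair, the first part of the gene held 3 shared sites. The site at chr7:117130066-117130188, 10.1 kb from the start, scored 12 in replicate 1 and 10 in replicate 2. The site at chr7:117149910-117150032, 30.0 kb in, scored 8 in replicate 1 and 11 in replicate 2. The strongest of the 3, at chr7:117172871-117172993 and 52.9 kb in, scored 32 in replicate 1 and 25 in replicate 2 (mean 28.5 ± 4.95, SD, n = 2). Counting intervals of both replicates overlapped at each. The stretch from there to the central pair, 40.1 kb from centre to centre, held no shared site and was the longest such interval within the gene.

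After the central run, the second part of the gene held 6 shared sites. A group of 3 lay between 131 and 140 kb from the start. The first, at chr7:117250560-117250682, was the weakest shared site of the window, with 6 in replicate 1 and 8 in replicate 2. The next, at chr7:117257092-117257214, scored 10 in both replicates, and chr7:117259862-117259984 scored 22 in both. A single site at chr7:117285777-117285899, 166 kb in, scored 14 in replicate 1 and 10 in replicate 2.

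Shared sites lay on both sides of the end of CFTR. Of the last shared sites inside the gene, chr7:117299953-117300075, 8.71 kb before the end, scored 31 in replicate 1 and 20 in replicate 2 (mean 25.5 ± 7.78, SD, n = 2). The other, chr7:117306253-117306375, lay 2.40 kb before the end and scored 12 in replicate 1 and 15 in replicate 2. Just past the end, by 3.92 kb, chr7:117312581-117312703 scored 12 in replicate 1 and 9 in replicate 2. These 3 sites formed a run of 12.6 kb that spans the end of the gene. On chromosome 7, 53 runs held 3 or more shared sites. At each of the 3 sites the counting intervals of the replicates overlapped.

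Downstream of CFTR, a strong site stood 14.4 kb past the gene's end at chr7:117323102-117323224. It scored 48 in replicate 1 and 50 in replicate 2 (mean 49 ± 1.41, SD, n = 2), the third highest mean of the window after the central pair. A further site at chr7:117329498-117329620, 20.8 kb past the end, scored 7 in replicate 1 and 15 in replicate 2 (mean 11 ± 5.66, SD, n = 2). That was the largest ratio of replicate 2 to replicate 1 in the window, 2.14. The counting intervals were 4.07 to 10.9 and 9.76 to 22.7, with a small overlap. No other shared site lay in the downstream flank.

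Upstream of CFTR, a single strong site stood 86.0 kb before the start, at chr7:117033996-117034118. It scored 44 in replicate 1 and 22 in replicate 2 (mean 33 ± 15.6, SD, n = 2). The counting intervals of 36.3 to 52.7 and 15.5 to 30.9 did not overlap, and this was the only 1 of the 18 shared sites at which they did not. The 84.3 kb between it and the site upstream of the start held no shared site, the widest such interval of the window.

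**Figure D2:**
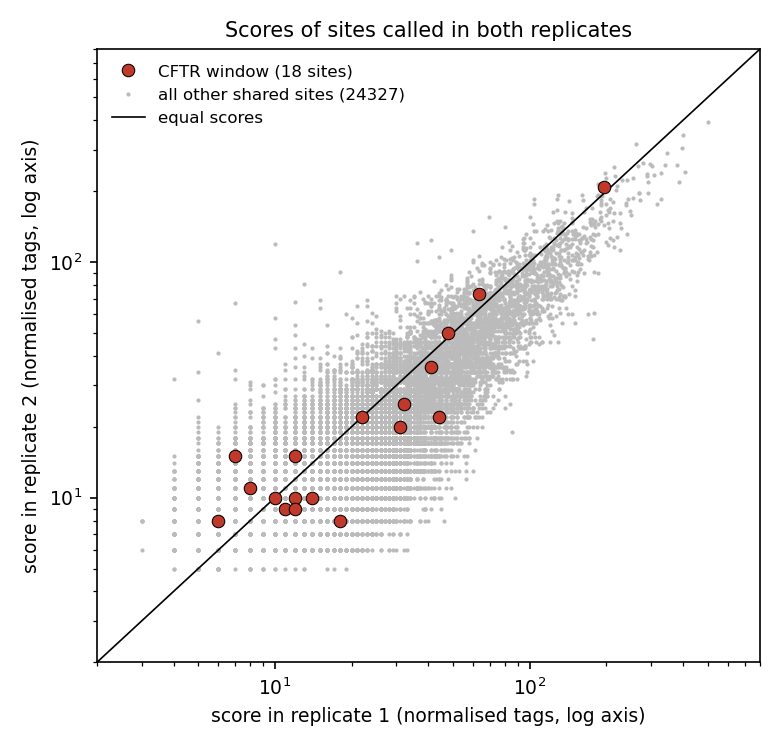
Score in replicate 2 against score in replicate 1 (normalised tags, log axes) for the 18 shared sites of the CFTR window (red) and the 24327 other shared sites (grey), with a line of equal scores. The CFTR sites lie on both sides of the line, 9 with the higher score in replicate 1, 7 with the higher score in replicate 2 and 2 equal.

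With scores scaled to library size, neither replicate was higher throughout at the shared CFTR sites. By the file headers, about 8.72% of replicate 1 tags and 5.16% of replicate 2 tags lay in peaks. Scaling to library size does not correct for this difference. Replicate 1 exceeded replicate 2 at 9 sites, fell below it at 7 and equalled it at 2. Only sites called in both lists enter this balance. The 17 sites called in replicate 1 only and the 2 in replicate 2 only are left out, so it does not describe the whole window. The median log2 ratio of replicate 1 to replicate 2 was 0.09 with an SD over sites of 0.54, against 0.26 with an SD of 0.62 at the 24327 other shared sites. The difference between these medians is smaller than the spread between sites and was not tested. Replicate 2 had the higher score at 38.9% of the CFTR sites and at 29.7% of the others. The median of the mean scores was 13.25 at the CFTR sites, against 14.5 at the others. Across the CFTR sites (n = 18) Spearman's rho of the scores was 0.79, against 0.78 elsewhere. On log2 scores Pearson's r was 0.91 at CFTR, against 0.83 elsewhere. These points come from the same pair of libraries, so the coefficients are descriptions. Centres called in the replicates lay a median of 14.5 bp apart at CFTR and of 15 bp elsewhere.

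Sites found in a single replicate were mostly weak. The 17 peaks called in replicate 1 only scored 4 to 16 with a median of 6, against a median of 16 for the shared peaks of that replicate. At the depth of replicate 2, 6 of the 17 would correspond to fewer than the 7.88 tags of its lowest listed score. This takes depth alone into account, and not the lower share of replicate 2 tags in peaks. The 4 highest were the peaks at chr7:117305380-117305502 with a score of 16, chr7:117299654-117299776 with 14, chr7:117148105-117148227 with 11 and chr7:117314007-117314129 with 9. The first of these missed a replicate 2 peak at chr7:117305520-117305670, score 13, by a gap of 17 bp, and the pair counted as a shared site when midpoints within 500 bp sufficed. The second lay 299 bp from the shared site at chr7:117299953-117300075, closer than the 300 bp at which replicate 2 peaks could be separated. The next were chr7:117314787-117314909 and chr7:117202940-117203062 with 8 each, chr7:117099141-117099263 and chr7:117206557-117206679 with 7 each, and chr7:117121165-117121287 and chr7:117397614-117397736 with 6 each. The other 7 scored 4 or 5.

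Apart from that near miss, replicate 2 had a peak of its own at 1 place. It lay 37.2 kb past the end of CFTR, at chr7:117345799-117345949, with a score of 11, and the nearest replicate 1 peak was 4482 bp away with a score of 4. Of the 17 peaks of replicate 1 alone, 12 lay within 10 kb of a shared site and 2 within 1 kb. How much of the window lies that near a shared site was not measured, so these counts do not show clustering.

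The share of CFTR peaks found in both replicates was close to that of peaks with like scores elsewhere. In replicate 1, 18 of 35 peaks were shared, or 51.4% (95% Wilson interval 35.6% to 67.0%), against 38.1% of all replicate 1 peaks. In replicate 2, 18 of 20 were shared, or 90.0% (69.9% to 97.2%), against 90.5% of all replicate 2 peaks. At the scores of these peaks, the shares found elsewhere in each list would give 16.0 shared of 35 in replicate 1 and 18.6 of 20 in replicate 2. In replicate 1, all 8 CFTR peaks above 20 were shared and none of the 7 up to 5, against 95.3% and 6.26% elsewhere. From 9 to 12 it was 5 of 7, against 43.3% elsewhere, and from 13 to 20 it was 2 of 4, against 72.1%. The missing 2 of the last class are the peaks that lay beside replicate 2 peaks at the end of the gene. The intervals cover counting error only.

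**Figure D3:**
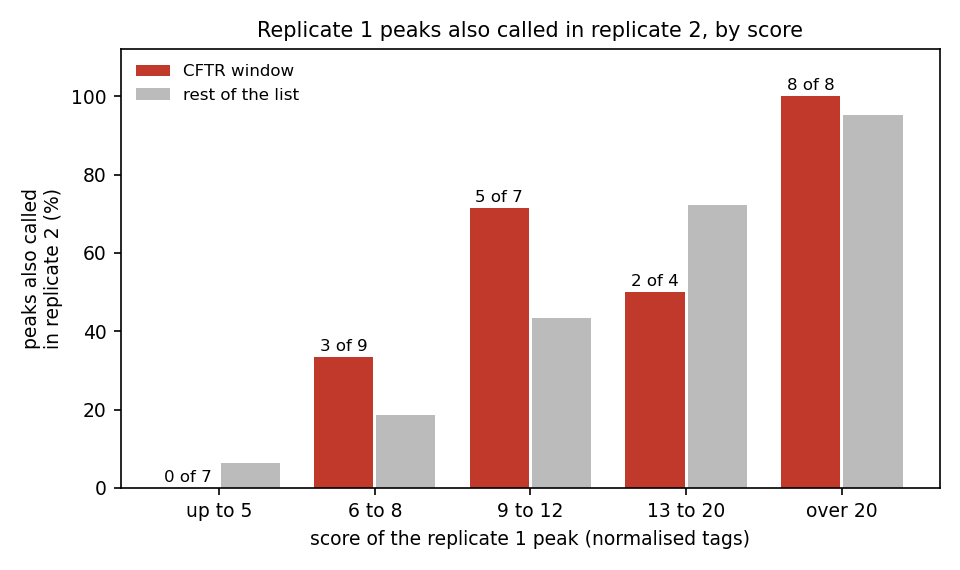
Percentage of replicate 1 peaks that were also called in replicate 2 (bars from 0), by score class of the replicate 1 peak in normalised tags, for the CFTR window (red, with counts) and the rest of the list (grey). At CFTR 0 of 7 peaks were shared up to a score of 5 and 8 of 8 above 20, and the grey bars rise with every class.

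The number of sites placed the CFTR window among the more densely bound stretches of its size. Of 6738 windows of the same length tiled over chromosomes 1 to 22 and X and holding at least 1 peak, 44 had 18 or more shared sites, which is 0.653% (95% Wilson interval 0.487% to 0.875%). The windows are a full tiling and not a random sample, and neighbours are not independent, so that interval does not measure how certain this share is. With the grid shifted along the chromosomes the share was 0.577%. The median window held 2, the 90th percentile was 9 and the highest held 27. On chromosome 7 the count was 2 of 384 windows, and 1 of these 2 overlaps the CFTR window. In each list by itself, 0.727% of the windows held at least 35 replicate 1 peaks and 0.519% held at least 20 replicate 2 peaks. The summed score of the CFTR window was 708 in replicate 1, against 686 in the highest of the 382 tiled windows of chromosome 7 that do not overlap it. In replicate 2 it was 586, against 626 in the highest of these. The tiled window that covers most of the CFTR window had 681 in replicate 1 and 575 in replicate 2. The CFTR window was placed on the gene and the tiled windows on nothing, so these shares describe where it stands and are not a test. They are not corrected for copy number, which is altered in Caco2 cells.

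**Figure D4:**
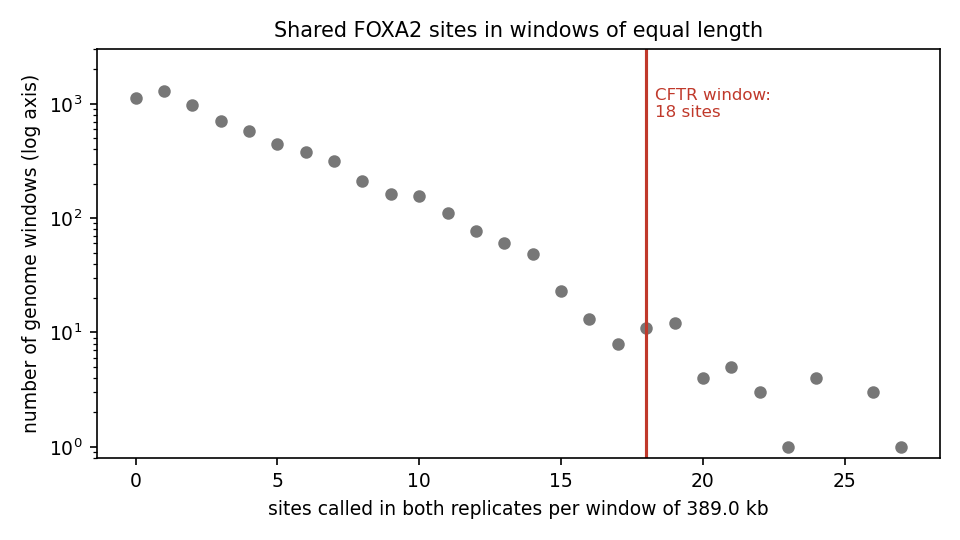
Number of genome windows (log axis) against the number of shared FOXA2 sites per window of 389 kb, with the CFTR window marked by a red line at 18 sites. The points fall steeply, and 44 of the 6738 windows lie at or to the right of the line.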

How the data were processed

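Per the submitters' processing notes, the build was hg19, and Bowtie 1.0.0 and HOMER 1.2 are the tools named. HOMER findPeaks called peaks in factor style against the input, one replicate at a time, per the file headers. A peak had to exceed the input 4-fold, and likewise the 10000 bp around it, with the false discovery rate set to 0.001. The headers put the tag threshold at 11 for replicate 1 and at 10 for replicate 2, but the lowest listed scores amount to 7.85 and 7.88 tags, so threshold and score are not the same measure. The deposited score is a whole number that the authors scaled to 10000000 tags per library and rounded. Multiplied back to tags, its sum was 0.450% and 0.196% above the header's tags in peaks. One unit of score is worth 2.62 tags of the replicate 1 library and 1.58 of the replicate 2 library. Fragment lengths in the headers are 88 bp and 110 bp, and peak widths are 123 bp and 151 bp, so scores of the replicates are not strictly alike. A position without a called peak is not shown to be unbound.

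Coordinates were made 1-based. Intervals of a score are exact Poisson intervals (95%) of its approximate tags and cover counting error only. Overlap of the intervals of both replicates does not show that their difference is within counting error. Every shared site was named, and of peaks in a single replicate the 10 with the highest score and both of replicate 2. The members, windows and score classes were chosen with earlier results of these data known. The overlap step was run on simulated lists whose overlaps were fixed by construction. That checks the counting only, not near misses or overlap by chance. A single condition leaves no test between groups, and comparison loci of other transport genes were not run, since no hg19 gene positions were used here. Python 3.11.15, numpy 2.4.6, pandas 2.3.3, scipy 1.17.1 and matplotlib 3.10.9 were used.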

Additional observations from a re-analysis of the deposited data

How the results depend on the processing

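Of 21 alternatives, 19 stayed within 1.5 times the count or within the stated spread. The number of replicate 1 peaks in the CFTR window moved from 35 to 18 with a score of at least 10, and also to 18 when the replicate 1 list was shortened to the length of replicate 2; both keep fewer peaks by construction. Shared sites numbered 18 with a reciprocal overlap of 50% or midpoints within 100 bp, 19 with midpoints within 500 bp, 17 with 50 kb flanks, 15 with the shortened list and 12 with a score of at least 10 in each replicate. Shared sites inside the gene numbered 10 to 14. The median log2 ratio moved from 0.09 to 0.55 when scores were taken as multiples of each list's median. The shift is less than the SD over sites of 0.54, though the new value itself is slightly above it. That SD is not the error of a median. On that scale replicate 1 was higher at most of the shared CFTR sites, so the balance between replicates depends on the scaling. The share of windows was 0.519% to 0.727% with either replicate left out, but this counted all peaks of the other list and not shared sites. It is another quantity, so its place among the 19 says little about the count of shared sites. Counting shared sites takes both lists, so leaving one out gives no value there. No paired analysis was possible because there is a single ChIP group. Precision is limited by 2 libraries and, for weak peaks, by fewer than 20 tags.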

Other observations

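The replicate 2 centre lay to the left of the replicate 1 centre, on hg19 coordinates, at 13 of the 18 shared CFTR sites, which is 72.2%, against 51.5% of the other shared sites. The offset was at most 43 bp at any CFTR site. It was noticed after the values were seen and was not tested.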
